A study of Caenorhabditis elegans with 5 samples.

Results

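The histone genes of *C. elegans* that carry a *his-* name were examined in poly(A)-selected mRNA-seq of whole young adult hermaphrodites grown at 19 °C on OP50 bacteria. Members were the gene models whose WormBase symbol, matched by sequence name, is *his-* followed by a number. The annotation holds 72 such genes, and 70 of them are among the 20911 gene models of the expression table (*his-40* and *his-73* were not analysed here). By histone class they comprise 1 gene for H1, 17 for H2A, 16 for H2B, 19 for H3, 16 for H4 and 1 short model, *his-39*, that was given no class. Each genotype had 1 library: *hrde-1(tm1200)*, written tm-1200 in the sample label, *set-32(ok1457)*, the *met-2(n4256);set-25(ok5021)* double mutant, *met-2 set-25;set-32*, a triple mutant that carries these alleles together with *ok1457*, and wild type (WT, strain N2). The study asked how loss of SET-32 and of MET-2 with SET-25, histone methyltransferases linked to methylation of H3 lysine 9, or of the germline nuclear Argonaute HRDE-1, affects nuclear RNAi and gene expression. As no genotype had a replicate, no difference below has a replicate check and no p-value was computed. The intervals given are 95% and cover counting error only.

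Histones package DNA into nucleosomes. H2A, H2B, H3 and H4 form the core particle, and the linker histone H1 binds the DNA between particles. In animals, most core histone genes are intronless, lie in multi-copy clusters and are expressed mainly in S phase, when new DNA is packaged, and their mRNAs end in a conserved stem-loop instead of a poly(A) tail. A smaller set of replacement histone genes contains introns, gives polyadenylated mRNA and is expressed outside S phase as well. In an adult hermaphrodite the germline is the main site of cell division. Poly(A) selection therefore measures the clustered genes only as far as their transcripts passed the selection, and for these genes transcript abundance and recovery in the selection cannot be told apart. In whole animals, fewer dividing cells and less RNA per cell cannot be told apart either.

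The values were RPKM, reads scaled to the length of the model and the depth of the library, and a read with several alignments had been divided evenly among them. The estimated depth was 1.82 to 2.23 M reads in *hrde-1*, *set-32* and the double mutant, 2.92 M in the triple mutant and 2.44 M in WT. Of the 70 models, 30 fell into 13 sets with identical values in every library, which left 53 distinct patterns, so single copies are uncertain and sums over copies are better determined. The levels of the targeted genes were set beside the labels. Each was lower than in WT in the libraries that carry its allele, although for *set-32* in the *set-32* library the interval of the ratio (0.386 to 1.04) included 1. *met-2* had 12.6 RPKM in the double and 9.45 in the triple mutant, against 47.3 in WT. *set-25* had 10.3 and 8.64 RPKM in these mutants, against 17.5 in WT. *set-32* had 8.15 RPKM in *set-32* and 5.65 in the triple mutant, against 12.5 in WT. *hrde-1* had 160 RPKM in *hrde-1*, against 228 in WT (0.702, 0.647 to 0.761). Libraries without the allele could be lower too. *hrde-1* was at 0.782 of WT in *set-32* (0.726 to 0.842) and 0.896 in the triple mutant (0.839 to 0.958). *met-2* was at 0.726 of WT in *set-32* (0.625 to 0.842). The level of *hrde-1* alone therefore does not check the *hrde-1* label. Among marker lists for cell types, the summed level of the 8 measured sperm genes was 260 RPKM in *hrde-1*, 718 in *set-32*, 344 in the double mutant and 338 in the triple mutant, against 291 in WT. In *set-32*, 6 of the 8 sperm genes tested were at least 2-fold higher than in WT, where 4.19% of all models tested were. They include *msp-3*, *msp-10*, *msp-19* and *msp-31*, which belong to 1 gene family. The medians of the oocyte, germline, intestine and body-wall muscle lists lay within 0.43 log2 units of WT in the 4 mutants. That of the epidermis list lay within 0.49, but its genes *col-7* and *col-62* were called lower in each mutant. None was called higher, of 5 tested in *hrde-1* and the double mutant and 6 in the others. *col-7* had 4.9 RPKM in *hrde-1*, 14.02 in *set-32*, 21.45 in the double mutant and 16.81 in the triple mutant, against 59.55 in WT. *col-62* had 5.25, 15.01, 23.98 and 16.54 RPKM in that order, against 57.2 in WT. Over all models, 1.6% to 3.55% were called lower. Whether the shared WT library differs here was not tested.

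The histone genes were expressed at very different levels, and the position of a gene in the genome went with its level. All 70 members had a mean of at least 1 RPKM, and none was at 0 in every library. Across the 5 libraries, the 7 genes with introns had means between 18.2 and 245 RPKM with a median of 77.7, whereas the 63 without introns ranged from 1.51 to 123 RPKM with a median of 12.74. The members lay at 17 loci on 6 chromosomes, counting members at most 20 kb apart as 1 locus. Most of the signal of the 60 intronless core genes, which leave out *his-39*, *his-69* and *his-70*, came from 3 loci on chromosome IV with 16 genes: *his-45* to *his-48* and *his-55* to *his-58* (11324056 to 11341703, WBcel235), *his-63* to *his-66* (11400415 to 11407427) and *his-59* to *his-62* (7485834 to 7488659). These 16 genes held 73.5% of the intronless core RPKM in *hrde-1*, 70.7% in *set-32*, 66.5% in the double mutant and 67.6% in the triple mutant, against 66.05% in WT. Poly(A)-selected RNA thus contained reads of intronless histone genes in every library.

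**Figure D1:**
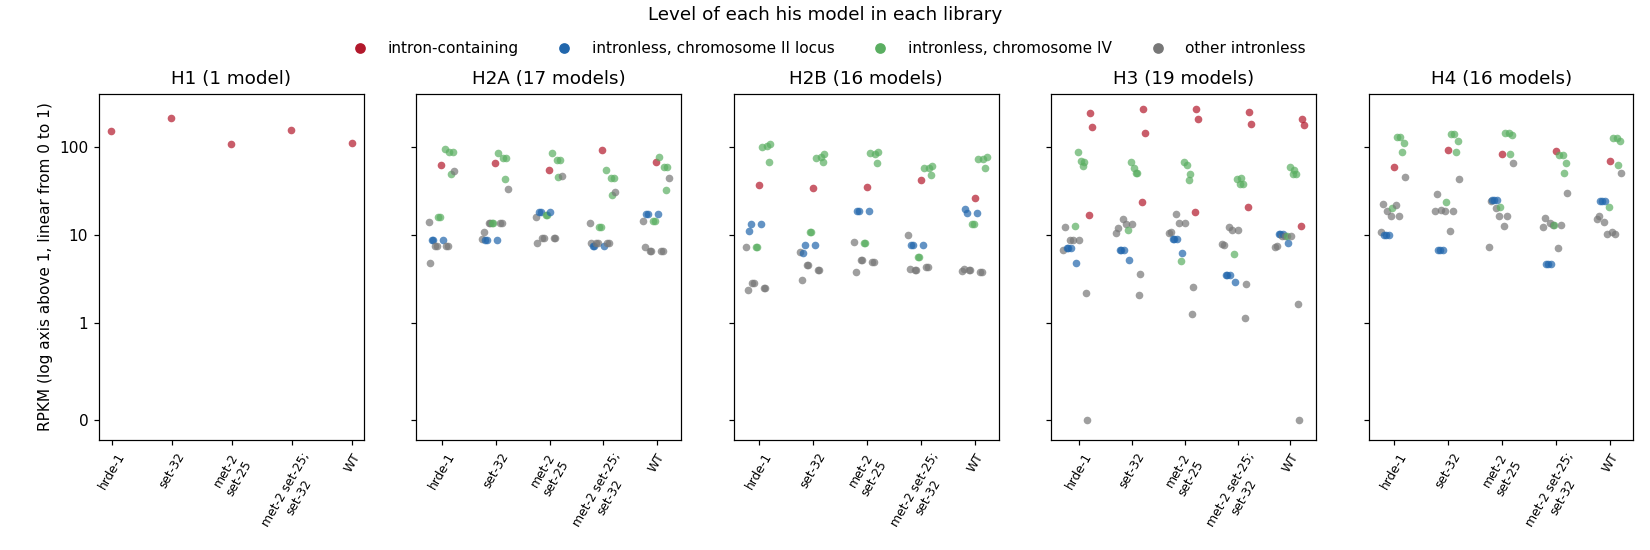
RPKM of each *his* model (points) in the 5 libraries, by histone class, on an axis that is logarithmic above 1 RPKM and linear from 0 to 1. The genes with introns (red) and most of those on chromosome IV (green) lie above the others, and the chromosome II members (blue) are lower in *hrde-1*, *set-32* and the triple mutant than in the double mutant and WT.

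Summed over all 70 members, the triple mutant had the lowest histone signal and the other mutants were slightly above WT. The sum was 2677 RPKM in *hrde-1*, 2643 in *set-32*, 2730 in the double mutant and 2054 in the triple mutant, against 2397 in WT. The triple mutant was thus at 0.857 of WT (0.808 to 0.908), while the ratio was 1.12 in *hrde-1* (1.05 to 1.19), 1.10 in *set-32* (1.04 to 1.17) and 1.14 in the double mutant (1.07 to 1.21). A member was called when its level + 1 RPKM differed at least 2-fold between both libraries and the higher level reached 5 RPKM. By this rule, 15 of 62 members tested were lower in the triple mutant and 1 was higher, where 1.7% of all models tested were lower and 3.76% higher. In *set-32*, 6 of 62 were lower and none higher (all models: 2.14% lower, 4.19% higher). In *hrde-1*, 3 of 62 were lower and none higher (all models: 3.55% lower, 2.68% higher). In the double mutant, none of 64 passed in either direction (all models: 1.6% lower, 3.3% higher). Copies with identical values were each counted here, although they share reads. With 1 model per set of identical values, 3 members were lower in *set-32* and 1 in *hrde-1*. In the triple mutant, 13 of the 15 lie at the chromosome II locus, in 7 patterns. The 4 comparisons share the WT library. Against the double mutant, 14 of 64 members were lower in the triple mutant and none higher (all models: 1.77% lower, 2.13% higher), and against *set-32* none of 62 passed in either direction (all models: 2.6% lower, 2.73% higher). The median log2 ratio of the members was -0.27 in the triple mutant, 0.14 in *set-32*, 0.04 in *hrde-1* and 0.19 in the double mutant. Over all 13613 measured models these medians were -0.00, -0.02, -0.00 and 0.06.

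Summed over the family, the intronless genes were lower and the intron-containing genes higher in the triple mutant than in WT, although the intronless genes of chromosome V were not lower. The 60 intronless core genes summed to 1941 RPKM in *hrde-1*, 1803 in *set-32*, 1961 in the double mutant and 1223 in the triple mutant, against 1729 in WT. The triple mutant was lowest, at 0.707 of WT (0.656 to 0.762), 0.623 of the double mutant (0.578 to 0.672) and 0.678 of *set-32* (0.628 to 0.731). The 7 genes with introns summed to 732 RPKM in *hrde-1*, 833 in *set-32*, 763 in the double mutant and 826 in the triple mutant, against 665 in WT. Here the triple mutant was at 1.24 of WT (1.13 to 1.37) and *set-32* at 1.25 (1.13 to 1.39). The double mutant was at 1.15 (1.03 to 1.28) and *hrde-1* at 1.10 (0.984 to 1.23). The triple mutant was level with *set-32* (0.992, 0.904 to 1.09) and at 1.08 of the double mutant (0.982 to 1.19). Genes with introns accordingly made up 40.2% of all histone RPKM in the triple mutant, 27.3% in *hrde-1*, 31.5% in *set-32* and 28.0% in the double mutant, against 27.8% in WT. All 4 core classes had lower intronless sums in the triple mutant than in WT, with ratios of 0.759 for H2A (0.652 to 0.880), 0.755 for H2B (0.646 to 0.883), 0.767 for H3 (0.649 to 0.906) and 0.621 for H4 (0.542 to 0.713). By locus, all members were below WT at the chromosome I, II and IV loci and at *his-38* on chromosome X. On chromosome V, 6 of 6 members were above WT at the locus of *his-49* to *his-54* and 7 of 8 at that of *his-17* to *his-22*, *his-27* and *his-28*. The chromosome V loci of *his-5* to *his-8* with *his-39* (3 of 5 below WT) and of *his-1* to *his-4* (2 of 4 below WT) were mixed. The 22 intronless core genes of chromosome V summed to 1.12 of WT (0.911 to 1.39). How much of the intronless signal depends on recovery in the poly(A) selection was not tested.

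The linker histone gene *his-24* (M163.3, chromosome X, 14490094 to 14491119, WBcel235) is the only H1 gene with a *his-* name. It had 150 RPKM in *hrde-1*, 211 in *set-32*, 106 in the double mutant and 155 in the triple mutant, against 110 in WT. It was highest in *set-32*, at 1.91 times WT (1.57 to 2.32), followed by the triple mutant at 1.41 (1.16 to 1.72) and *hrde-1* at 1.36 (1.09 to 1.69). The double mutant was close to WT at 0.966 (0.765 to 1.21). None of these passed the 2-fold rule on the log2(RPKM + 1) scale, where *set-32* reached 0.93. The sperm genes were higher in the same *set-32* library but not in *hrde-1*. The summed level of the 5 intestine genes had the same order as *his-24*, apart from *hrde-1* and the triple mutant, with 5269 RPKM in *hrde-1*, 6167 in *set-32*, 3903 in the double mutant and 5168 in the triple mutant, against 4408 in WT. This sum came almost entirely from *vit-2*, *vit-5* and *vit-6*, with 1479, 1488 and 1415 RPKM in WT. *ges-1* and *elt-2* had 14.2 and 11.5 RPKM in WT. *elt-2* went the other way, with 8.26 to 9.17 RPKM in the 4 mutants, although every interval of its ratio to WT included 1. The part of either list in these differences was not tested.

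For H2A, which with H2B forms the dimers at the outer faces of the nucleosome, the class sum was 535 RPKM in *hrde-1*, 499 in *set-32*, 515 in the double mutant and 393 in the triple mutant, against 464 in WT. The 3 genes with the highest means were *his-47*, *his-35* and the pair *his-57* and *his-65*, which share 1 set of values. *his-47* had 93.0 RPKM in *hrde-1*, 83.8 in *set-32*, 83.5 in the double mutant and 53.5 in the triple mutant, against 76.5 in WT. *his-57* and *his-65* had 85.6 RPKM in *hrde-1*, 73.7 in *set-32*, 69.4 in the double mutant and 43.9 in the triple mutant, against 58.6 in WT. These intronless genes of chromosome IV were lowest in the triple mutant. *his-57* overlaps *klp-12* in the annotation, whereas *his-65*, with the same values in every library, overlaps no other gene. *his-35*, an H2A gene with introns on chromosome V, had 62.1 RPKM in *hrde-1*, 65.2 in *set-32*, 53.5 in the double mutant and 92.1 in the triple mutant, against 66.8 in WT. It was highest in the triple mutant, at 1.38 of WT (0.989 to 1.90), which counting error alone does not set apart.

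For H2B, the class sum was 482 RPKM in *hrde-1*, 402 in *set-32*, 454 in the double mutant and 329 in the triple mutant, against 407 in WT. The 3 genes with the highest means, all on chromosome IV, were *his-66*, *his-58* and *his-48*. *his-66* had 107 RPKM in *hrde-1*, 82.9 in *set-32*, 85.7 in the double mutant and 60.7 in the triple mutant, against 75.1 in WT. *his-58* had 102 RPKM in *hrde-1*, 76.2 in *set-32*, 81.6 in the double mutant and 57.7 in the triple mutant, against 72.2 in WT. *his-48* had 98.1 RPKM in *hrde-1*, 73.3 in *set-32*, 84.3 in the double mutant and 56.9 in the triple mutant, against 72.1 in WT. In these H2B genes *hrde-1* was highest and the triple mutant lowest. *his-41*, the H2B gene with introns, had 36.2 RPKM in *hrde-1*, 33.9 in *set-32*, 34.4 in the double mutant and 41.8 in the triple mutant, against 25.8 in WT. All 4 intervals of its ratio to WT included 1, and it overlaps the model C50F4.6. Away from the chromosome II locus, *his-29* and *his-34* on chromosome IV, a pair with identical values, passed the 2-fold rule in the triple mutant. They had 5.61 RPKM there, against 13.3 in WT (0.421, 0.190 to 0.869). With 7.30 RPKM in *hrde-1*, 10.6 in *set-32* and 8.07 in the double mutant, WT was the highest library. The triple mutant was at 0.695 of the double mutant (0.293 to 1.73). *his-4* was the only member that passed the 2-fold rule upward, with 9.87 RPKM in the triple mutant, against 3.87 in WT. It was also above WT in *hrde-1* (7.25 RPKM), *set-32* (6.32) and the double mutant (8.27). The call rests on about 4 reads in WT, and the ratio of 2.55 has an interval of 0.681 to 9.90.

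For H3, the histone that carries lysine 9, the class sum was 793 RPKM in *hrde-1*, 760 in *set-32*, 813 in the double mutant and 684 in the triple mutant, against 697 in WT. More than for any other core class, the H3 signal came from genes with introns, which held 53.6% of it in *hrde-1*, 56.7% in *set-32*, 60.0% in the double mutant and 65.6% in the triple mutant, against 56.6% in WT. *his-71*, *his-72* and *his-74* encode H3.3-type replacement histones. *his-72* (Y49E10.6, chromosome III, 12367475 to 12369050) had the highest mean of the family, with 241 RPKM in *hrde-1*, 265 in *set-32*, 266 in the double mutant and 249 in the triple mutant, against 205 in WT. All mutants were above WT, by 1.18 (0.961 to 1.45), 1.29 (1.07 to 1.56), 1.30 (1.07 to 1.57) and 1.21 (1.01 to 1.46) in that order. *his-74* (W05B10.1, chromosome V, 12659704 to 12660330) had 167 RPKM in *hrde-1*, 143 in *set-32*, 204 in the double mutant and 179 in the triple mutant, against 177 in WT, and the 4 intervals of its ratio to WT included 1. *his-71* (F45E1.6, chromosome X, 7981382 to 7982070) was lower, with 16.8 RPKM in *hrde-1*, 23.6 in *set-32*, 17.9 in the double mutant and 20.3 in the triple mutant, against 12.5 in WT. It was above WT in the 4 mutants, again with every interval including 1. *his-45*, the strongest intronless H3 gene, had 86.4 RPKM in *hrde-1*, 66.5 in *set-32*, 66.3 in the double mutant and 42.5 in the triple mutant, against 58.6 in WT. The H3 variant genes *his-69* and *his-70*, neighbours on chromosome III, were near the limit of detection. *his-69* had 2.17 RPKM in *hrde-1*, 2.07 in *set-32*, 1.26 in the double mutant and 1.13 in the triple mutant, against 1.62 in WT. *his-70*, which the authors' table places in the sperm class, was listed at 0 in *hrde-1*, 3.57 in *set-32*, 2.54 in the double mutant and 2.72 in the triple mutant, against 0 in WT. A value of 0 allows up to 3 reads, so differences in *his-70* were not detectable at this depth.

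For H4, the class sum was 714 RPKM in *hrde-1*, 769 in *set-32*, 840 in the double mutant and 491 in the triple mutant, against 718 in WT. The triple mutant was at 0.684 of WT (0.602 to 0.776), the lowest ratio of the 5 classes. The 3 genes with the highest means were the identical pair *his-46* and *his-56*, and *his-64*. *his-46* and *his-56* had 129 RPKM in *hrde-1*, 138 in *set-32*, 142.3 in the double mutant and 79.1 in the triple mutant, against 126 in WT. *his-64* had 111 RPKM in *hrde-1*, 114.8 in *set-32*, 135 in the double mutant and 64.8 in the triple mutant, against 117 in WT. The triple mutant was again the lowest library, at 0.556 of WT for *his-64* (0.392 to 0.779). *his-37*, the H4 gene with introns, had 58.3 RPKM in *hrde-1*, 92.3 in *set-32*, 81.3 in the double mutant and 88.2 in the triple mutant, against 68.5 in WT. Its ratio to WT was 1.29 in the triple mutant (0.896 to 1.86), and it overlaps *nstp-10*.

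**Figure D2:**
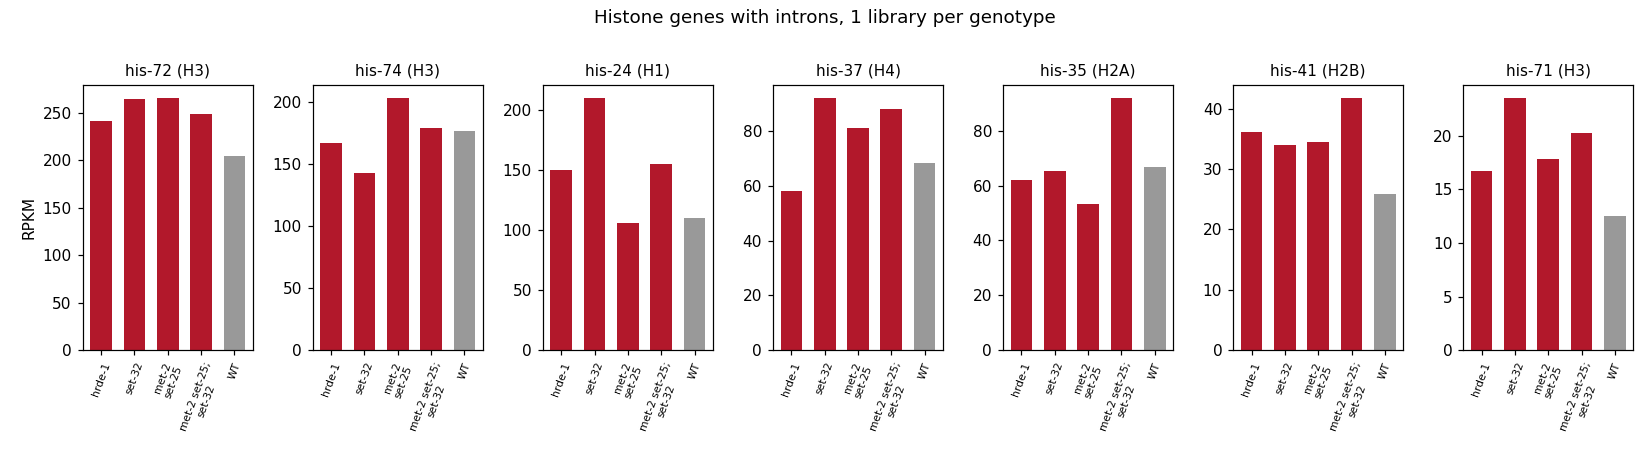
RPKM of the 7 *his* genes with introns in each library (bars, 1 library each; WT in grey), ordered by mean level and each on its own axis from 0. All 7 are higher in the triple mutant than in WT, for *his-74* only slightly (179 RPKM, against 177 in WT), and *his-24* is highest in *set-32*, with 211 RPKM.

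The locus on chromosome II held most of the called members. It spans 13817760 to 13828697 (WBcel235) and holds 13 intronless genes with low levels: *his-12*, *his-16* and *his-43* (H2A), *his-11*, *his-15* and *his-44* (H2B), *his-9*, *his-13*, *his-25* and *his-42* (H3), and *his-10*, *his-14* and *his-26* (H4). Together they had 118.7 RPKM in *hrde-1*, 92.4 in *set-32*, 215 in the double mutant and 72.6 in the triple mutant, against 217 in WT. The ratio to WT was 0.547 in *hrde-1* (0.412 to 0.709), 0.426 in *set-32* (0.323 to 0.558), 0.992 in the double mutant (0.800 to 1.23) and 0.334 in the triple mutant (0.255 to 0.438). Both libraries with the *set-32* deletion and the *hrde-1* library were thus low, and the double mutant was level with WT. The sums rest on about 79 reads in *hrde-1*, 77 in *set-32*, 162 in the double mutant and 79 in the triple mutant, against 192 in WT.

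At this locus the H4 set *his-10*, *his-14* and *his-26*, whose 3 models share reads, differed most. Each of them had 9.78 RPKM in *hrde-1*, 6.70 in *set-32*, 24.4 in the double mutant and 4.68 in the triple mutant, against 24.3 in WT. This set passed the 2-fold rule downward in *hrde-1* (0.402, 0.222 to 0.712), *set-32* (0.276, 0.141 to 0.499) and the triple mutant (0.193, 0.0974 to 0.359). The other 3 members called lower in *set-32* were the H2B genes. *his-15* and *his-44*, with identical values, had 13.1 RPKM in *hrde-1*, 7.70 in *set-32*, 18.4 in the double mutant and 7.63 in the triple mutant, against 17.7 in WT. *his-11* had 11.1 RPKM in *hrde-1*, 6.14 in *set-32*, 18.4 in the double mutant and 7.60 in the triple mutant, against 19.4 in WT. For these H2B genes *hrde-1* lay between the 2 low and the 2 high libraries. The H2A genes *his-12* and *his-43* had 8.76 RPKM in *hrde-1*, 8.59 in *set-32*, 18.0 in the double mutant and 7.51 in the triple mutant, against 17.0 in WT, and *his-16* had nearly the same values. The H3 genes *his-9*, *his-13* and *his-25* had 7.01 RPKM in *hrde-1*, 6.63 in *set-32*, 8.98 in the double mutant and 3.44 in the triple mutant, against 10.1 in WT. *his-42* had 4.76 RPKM in *hrde-1*, 5.16 in *set-32*, 6.23 in the double mutant and 2.88 in the triple mutant, against 8.12 in WT. All 13 genes, in 7 distinct patterns, were called lower in the triple mutant, and with *his-29* and *his-34* they make up its 15 calls, so that without this locus 2 members were called lower in the triple mutant and 0 in *set-32* and *hrde-1*. For *his-16* and *his-42* the interval included 1. A difference that separates both *set-32* libraries from WT and the double mutant, with the higher of the first 2 at least 2-fold below the lower of the other 2, was found in 15 of 10296 models tested (0.146%). They include 6 of the 62 members tested, namely the 3 H4 and the 3 H2B genes above, which represent 3 patterns. This criterion was chosen after the values were seen. The 6 measured genes within 25 kb of the locus had median log2 ratios to WT of 0.02 in *hrde-1*, 0.31 in *set-32*, 0.37 in the double mutant and -0.02 in the triple mutant. Single ratios ranged from -2.12 for *ins-37* in *hrde-1* to 1.80 for F08G2.5 in the triple mutant. These genes and F08G2.8 had at most 5.15 RPKM in any library. *ins-37* and F08G2.8 were below WT in *hrde-1* and *set-32*, and the other neighbours above it. Whether the locus differs from its neighbours was not tested.

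**Figure D3:**
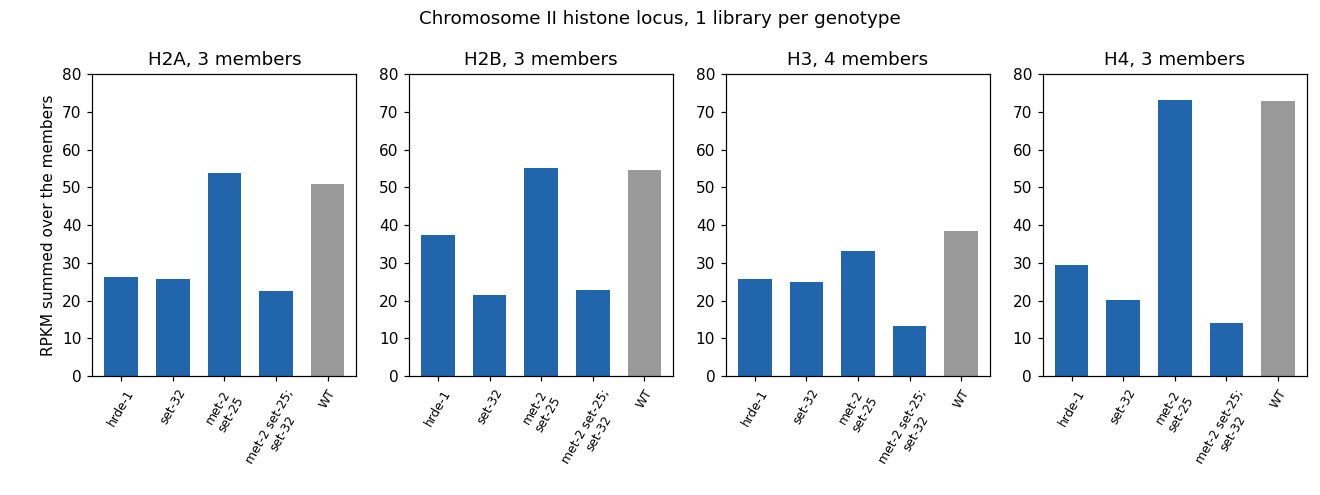
RPKM summed over the H2A, H2B, H3 and H4 genes of the chromosome II locus in each library (bars, 1 library each; WT in grey). For H4 the sums are 29.3 in *hrde-1*, 20.1 in *set-32*, 73.2 in the double mutant and 14.04 in the triple mutant, against 72.9 in WT, and for H2A, H2B and H3 the 2 *set-32* libraries also lie below WT.

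At no other locus did the intervals lie below 1 in both *set-32* and the triple mutant. The 3 strong chromosome IV loci summed to 1426 RPKM in *hrde-1*, 1274 in *set-32*, 1305 in the double mutant and 827 in the triple mutant, against 1142 in WT. They were below WT in the triple mutant (0.724, 0.661 to 0.794) and above it in *set-32* (1.12, 1.02 to 1.22) and *hrde-1* (1.25, 1.14 to 1.37). On chromosome I, *his-67* and *his-68* had a summed ratio to WT of 0.641 in the triple mutant (0.451 to 0.905) and 0.799 in *set-32* (0.567 to 1.15). The 22 intronless core genes on chromosome V summed to 197 RPKM in *hrde-1*, 267 in *set-32*, 242 in the double mutant and 202 in the triple mutant, against 180 in WT. They were above WT in *set-32* (1.49, 1.21 to 1.84) and the double mutant (1.35, 1.09 to 1.68), and the triple mutant (1.12, 0.911 to 1.39) was not set apart from WT by counting error. Within chromosome V, the H2A set *his-19*, *his-21*, *his-51* and *his-53*, spread over 2 loci, had 7.46 RPKM in *hrde-1*, 13.5 in *set-32*, 9.17 in the double mutant and 8.09 in the triple mutant, against 6.53 in WT. *his-38*, a lone H4 gene on chromosome X, had 21.8 RPKM in *hrde-1*, 11.04 in *set-32*, 12.36 in the double mutant and 6.99 in the triple mutant, against 10.8 in WT, from 6 to 12 reads per library.

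**Figure D4:**
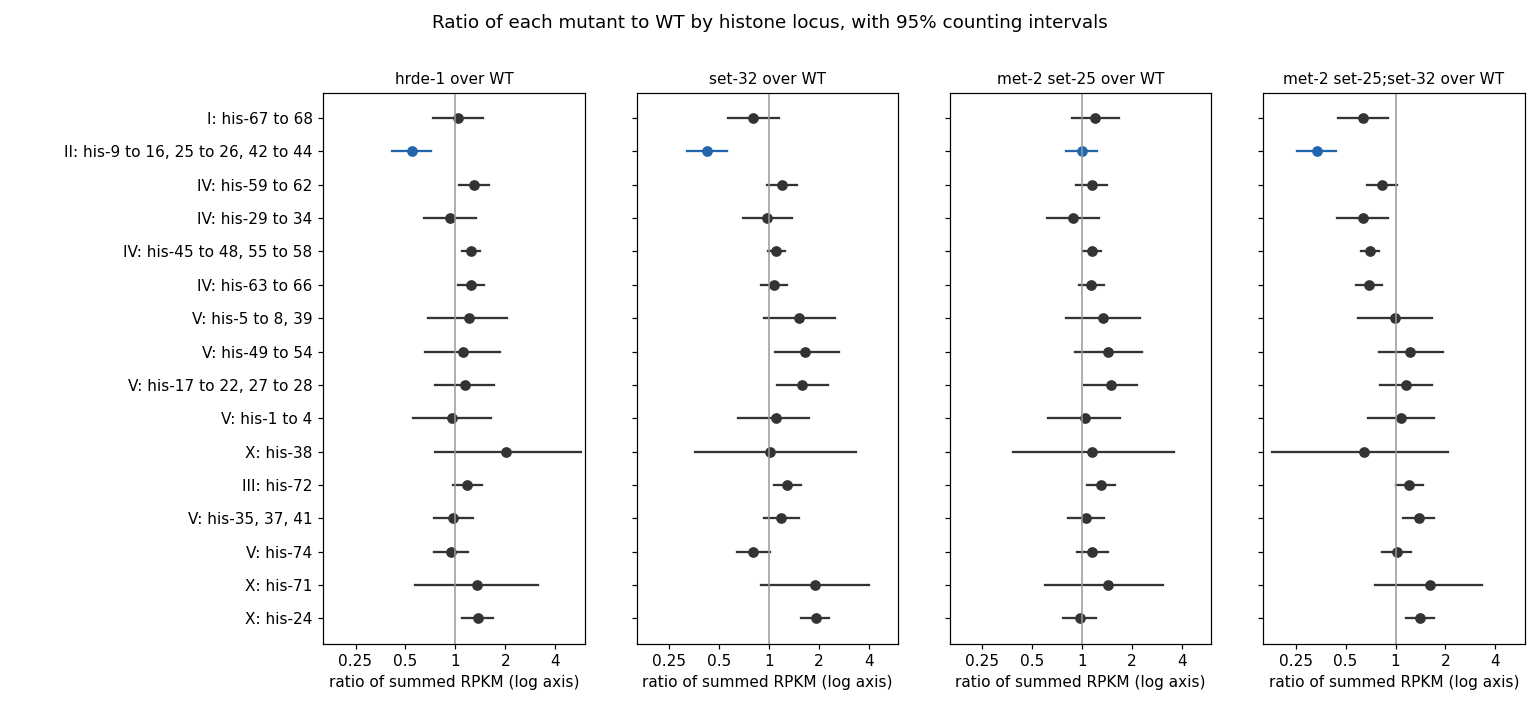
Ratio of summed RPKM, mutant over WT, for 16 of the 17 histone loci (points) with 95% counting intervals (lines), on a logarithmic axis. The locus of *his-69* and *his-70* is left out because of its few reads. The chromosome II locus (blue) is at 0.547 in *hrde-1*, 0.426 in *set-32*, 0.992 in the double mutant and 0.334 in the triple mutant, and the chromosome IV loci are below 1 in the triple mutant only, apart from *his-29* to *his-34*.

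The authors' list of loci silenced at the transcriptional level by germline nuclear RNAi, defined from *hrde-1* mutants, holds 3 members, *his-28*, *his-49* and *his-50*, at 2 neighbouring loci on chromosome V. *his-28* and *his-50*, H4 genes with identical values, had 16.3 RPKM in *hrde-1*, 18.5 in *set-32*, 16.4 in the double mutant and 12.9 in the triple mutant, against 10.03 in WT. *his-49*, an H3 gene, had 8.64 RPKM in *hrde-1*, 13.1 in *set-32*, 13.4 in the double mutant and 11.29 in the triple mutant, against 9.55 in WT. None of the 3 passed the 2-fold rule in any mutant, and over all models 2.68% were called higher in *hrde-1*, so that 0 of 3 is near the background. The ratio of *hrde-1* to WT was 1.62 for *his-28* and *his-50* (0.767 to 3.44, from 18 and 15 reads over both copies) and 0.905 for *his-49*, counted with its identical copy *his-27* (0.417 to 1.96, from 13 and 19 reads). Within 25 kb of these loci, the duplicated genes F07B7.1 and W09B7.1, which share 1 set of values, had 56.3 RPKM in *hrde-1*, against 0.79 in WT, and F07B7.2 and W09B7.2, likewise, had 90.1 RPKM in *hrde-1*, against 4.13 in WT. Other genes in the same windows were close to WT, such as *ttr-47* with 96.2 RPKM in *hrde-1*, against 81.5 in WT, and *rpms-1* with 1.53 RPKM in *hrde-1*, against 1.39 in WT. These neighbours were named after their values were seen.

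Among genes that act with the histone genes, few passed the 2-fold rule, where 1.6% to 4.19% of all models did so per direction. The chaperone genes were below WT as a list in all 4 mutants. Most 3′ processing genes were below WT in *set-32*, the double and the triple mutant, and most DNA replication genes in *set-32* and the triple mutant. All comparisons share the WT library, and whether that library differs here was not tested. Of 12 histone variant and linker histone genes without a *his-* name, 8 or 9 were tested per mutant and the only one that passed was *htas-1*, which encodes an H2A variant of sperm. It had 1.27 RPKM in *hrde-1*, 9.31 in *set-32*, 2.21 in the double mutant and 3.95 in the triple mutant, against 10.4 in WT, and was called lower in *hrde-1* (0.122, 0.00284 to 0.840), the double mutant (0.213, 0.0230 to 0.977) and the triple mutant (0.380, 0.103 to 1.19). These intervals are wide, and that of the triple mutant includes 1. Of 7 genes linked to 3′ processing of histone mRNA, such as the stem-loop binding protein gene *cdl-1* and *csr-1*, none passed, and the median log2 ratio was 0.07 in *hrde-1*, -0.21 in *set-32*, -0.06 in the double mutant and -0.14 in the triple mutant. All 7 were below WT in *set-32*, 6 in the triple mutant, 5 in the double mutant and 2 in *hrde-1*. Of 14 histone chaperone genes none passed. Their median log2 ratio was -0.23 in *hrde-1*, -0.27 in *set-32*, -0.11 in the double mutant and -0.33 in the triple mutant. All 14 were below WT in *set-32* and in the triple mutant, 9 in *hrde-1* and 11 in the double mutant. *xnp-1*, the ATRX homologue, had 44.4 RPKM in *hrde-1*, 35.8 in *set-32*, 40.7 in the double mutant and 30.0 in the triple mutant, against 52.5 in WT, and was at 0.571 of WT in the triple mutant (0.498 to 0.654). *chaf-1*, a subunit of the chromatin assembly factor that deposits histones behind the replication fork, had 77.6 RPKM in *hrde-1*, 75.4 in *set-32*, 91.3 in the double mutant and 60.2 in the triple mutant, against 96.4 in WT, with a ratio of 0.625 in the triple mutant (0.530 to 0.739). Of 24 DNA replication genes, 23 were measured and none passed, with medians of 0.17 in *hrde-1*, -0.21 in *set-32*, 0.03 in the double mutant and -0.12 in the triple mutant. Of the 23, 18 were below WT in *set-32*, 16 in the triple mutant, 9 in the double mutant and 6 in *hrde-1*. *pcn-1*, which encodes the sliding clamp PCNA, had 453 RPKM in *hrde-1*, 386 in *set-32*, 408 in the double mutant and 339 in the triple mutant, against 308 in WT. Its ratio was 1.47 in *hrde-1* (1.32 to 1.65), 1.26 in *set-32* (1.12 to 1.40) and 1.33 in the double mutant (1.18 to 1.48). That of 1.10 in the triple mutant had an interval that includes 1 (0.988 to 1.23). *psf-2* went the other way, at 0.708 of WT in the triple mutant (0.547 to 0.907).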

How the data were processed

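Poly(A)-selected RNA of 5 genotypes was sequenced, with 1 library each. The authors mapped single-end reads of 50 nt against the WS190 genome using Bowtie 0.12.7, required perfect matches, split multi-mapping reads in equal parts over their positions and corrected for depth. The deposited values are RPKM with 2 decimals. Strand and gene models of the counting are not given in the sources used here. Columns carry library numbers, mapped to samples through the study's library list. Symbols, positions and overlaps were taken from the RefSeq and Ensembl 115 annotation of WBcel235, another build than that of the counts. Histone class followed the coding length for 66 of the 70 members and was set by hand for the others.

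Depth was estimated from the steps between low values, where 47.8% to 51.0% of values came within 0.1 of a whole number of reads, against 20% that chance gives. Read numbers are thus approximate. Intervals of ratios are exact Clopper-Pearson intervals of the estimated reads. Ratios for calls were log2((mutant RPKM + 1)/(WT RPKM + 1)), called at 2-fold where the higher library reached 5 RPKM, which sets a size without testing it. Medians cover models whose mean reached 1 RPKM. Sums are ratios of summed RPKM. The procedure was tested on simulated data.

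Members, loci and lists were chosen with earlier results of these data known. Genes named are replacement and variant members, the 3 highest of each class, each member past 2-fold, the targeted genes, and list genes past 2-fold or among the 3 largest ratios of a histone-related list, of which the text gives some. The other members named, by locus or as genes with introns or on the authors' target list, were chosen after their values were seen. So were the intestine genes named singly. No sequence was printed, and a genome was not used here. Python 3 with numpy, pandas, scipy and matplotlib was used.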

Additional observations from a re-analysis of the deposited data

Results flagged for a closer look

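Loss of *set-32* can be read in 2 backgrounds, as *set-32* over WT and as the triple mutant over the double mutant. Of 25 sums examined (classes, loci, and genes with and without introns, which overlap), 12 had a ratio above 1 in the first and below 1 in the second comparison. In 10 of the 12 at least 1 of the 2 counting intervals lay away from 1, and in 0 did both. Over all measured models the median log2 ratio was -0.02 in *set-32* over WT and -0.06 in the triple over the double mutant, and the ratios below were not corrected for it. With 1 library per genotype the difference between the backgrounds was not tested. The ratios were 1.04 in *set-32* over WT and 0.623 in the triple over the double mutant for the intronless core genes, 1.08 and 0.763 for H2A, 1.09 and 0.840 for H3, and 1.07 and 0.585 for H4. On chromosome IV they were 1.11 and 0.616 for the locus of *his-45* to *his-48*, 1.08 and 0.609 for that of *his-63* to *his-66*, and 1.20 and 0.728 for that of *his-59* to *his-62*. On chromosome V they were 1.53 and 0.742 for the locus of *his-5* to *his-8*, 1.65 and 0.847 for *his-49* to *his-54*, and 1.59 and 0.773 for that of *his-17* to *his-22*, where the 3 intervals of the second ratio (0.453 to 1.21, 0.563 to 1.31 and 0.558 to 1.09) include 1. They were 1.29 and 0.936 for *his-72* and 1.02 and 0.566 for *his-38*, where the intervals of the second ratio (0.784 to 1.12 and 0.153 to 1.76) include 1. Of the 12 sums, the interval of the first ratio lay away from 1 only for *his-49* to *his-54* (1.09 to 2.64), the locus of *his-17* to *his-22* (1.13 to 2.28) and *his-72* (1.07 to 1.56). For the others it included 1, as at 0.970 to 1.12 for the intronless core genes and 0.948 to 1.21 for H4. The chromosome II locus was below 1 in both comparisons, at 0.426 and 0.337.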

How the results depend on the processing

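No paired analysis was possible because each genotype had 1 library, and for the same reason no library of a group could be left out. Counts of calls depended on the settings. For the 15 members lower in the triple mutant, the count was 3 with a pseudocount of 5, 3 with at least 20 RPKM, 6 against the median of the other 4 libraries, 8 with 1 model per set of identical values and 2 without the chromosome II locus. Its 1 higher member became 2 without a filter, and 0 under a pseudocount of 5, at 20 RPKM or against the other 4 libraries. The 6 lower in *set-32* became 3 at 20 RPKM, 3 with 1 model per set and 0 without the locus, and the 0 higher became 1 without a filter and 4 under a pseudocount of 0.1. The 3 lower in *hrde-1* became 0 against the other 4 libraries, 0 under a pseudocount of 5, 1 with 1 model per set and 0 without the locus. In the double mutant the 0 higher became 3 against the other 4 libraries, 1 without a filter and 1 under a pseudocount of 0.1, and the 0 lower became 1 with a pseudocount of 0.1 and 1 after rescaling to a median ratio of 1.

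Against the median of the other 4 libraries, the median log2 ratio of the members turned to -0.056 in *hrde-1* and moved to -0.45 in the triple mutant, the ratio of summed RPKM moved to 0.772 for all members and 0.880 for H3 in the triple mutant and to 0.697 for H1 in the double mutant, and the ratio of the chromosome II locus moved to 0.771 in *hrde-1* and turned to 2.04 in the double mutant. Without the chromosome II locus, an alternative added after seeing the data, the summed ratio was 1.17 for all members and turned to 1.08 for H2B in *set-32*, turned to 1.06 for H4 in *hrde-1*, and in the triple mutant was 0.909 for all members and turned to 1.02 for H3. Rescaling turned H4 in *hrde-1* to 1.00 and H2B in *set-32* to 1.01, and without *his-72* H3 in the triple mutant was 0.883. The cause of these changes was not tested. The other 148 alternative values of the counts, medians and sums kept their direction and stayed within 1.5 times the count or within the interval of the median or ratio. These limits are wide for small values: the median log2 ratio of 0.04 in *hrde-1* became 0.14 for members with a mean of 5 RPKM or more and 0.17 with 1 model per set or without the chromosome II locus, and the H1 ratio in *hrde-1* became 1.13 against the other 4 libraries. Of the alternative values of single called members, 33 fell below 2-fold in the same direction. At 5 RPKM a 1-kb model stood for 9.10 to 14.6 reads, and most intronless members are shorter, which limits single copies.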
